A study of Homo sapiens with 12 samples.

Results

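RNA-seq read counts of 10 genes for secreted matrix proteins were described in 4 human lung cancer cell lines: FN1, THBS1, THBS2, SPARC, TNC, MGP, POSTN, SPP1, FBN1 and FBN2, out of 22506 genes listed in the count table. The genes were taken by name as the fibronectin, thrombospondin, matricellular and fibrillin genes of interest, with no cut on a value, so none lies just inside or outside a threshold. The genes were chosen by name with earlier results of these libraries known, and which measured values weighed in that choice is not recorded. Every value below may have been among them and is given as a description. An adjusted p is printed only to say whether a difference passed the threshold over all genes tested. All 10 were found in the table, and 9 passed the filter on low counts, with POSTN left out of the tests.

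Each line (H1703, H1299, CHAGO and CALU in the labels) gave 1 library of tumor-initiating cells (TICs) with a knockdown of PRKCI, 1 of TICs without it, and 1 of parental cells, which the labels call adherent. PRKCI is the gene of protein kinase C iota, a kinase of the atypical class with a part in cell polarity. All groups are cultures of the same 4 lines, every line stands for 1 replicate of a state (n = 4), and nothing in the labels speaks of repeat cultures of a line. The way TICs were enriched and PRKCI was knocked down is not given in the sources used here. PRKCI had 58.1, 25.8, 23.2 and 41.5 CPM (counts-per-million values after TMM scaling) in knockdown TICs of H1703, H1299, CHAGO and CALU, against 342, 199, 608 and 237 CPM in TICs. It was lower in 4 of 4 lines, by 3.15 on the log2 scale (standard error 0.37, edgeR adjusted p = 0.0489). That call was narrow. Leaving out H1703, H1299, CHAGO or CALU gave edgeR adjusted p-values of 0.395, 0.540, 0.0537 and 0.597. Without the knockdown TIC, TIC or parental library of CALU alone they were 0.275, 0.296 and 0.122.

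Fibronectin is a secreted glycoprotein that cells assemble into fibrils through integrins, and it carries collagens and growth factors in the matrix. Matricellular proteins such as thrombospondins, SPARC, tenascin C, periostin and osteopontin are secreted into the matrix, where they mostly adjust adhesion and growth factor signals rather than bear load. Fibrillins form microfibrils that hold latent TGF-beta. In lung tumors much of this matrix is made by fibroblasts, while tumor cells in culture can express some of these genes themselves.

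The libraries held 21.2 to 36.1 M reads (M, mega) in H1703 and H1299 and 63.8 to 91.8 M in CHAGO and CALU, so a limit of 3 reads, taken for a gene with no read, lay lower in CHAGO and CALU. The markers showed lines of different character. CHAGO had the epithelial genes EPCAM (611, 666 and 432 CPM in knockdown TICs, TICs and parental cells) and CDH1, both at 0 or at most 0.710 CPM in H1703 and H1299. In CALU, EPCAM had 1.18, 12.6 and 23.9 CPM in the same states and CDH1 0, 0.266 and 4.35 CPM. KRT19 went the other way, with 112, 151 and 237 CPM in CALU against 51.8, 70.5 and 9.23 CPM in CHAGO. KRT8, KRT18 and CLDN4 were higher in CHAGO than in CALU in every state. In parental cells they had 51.1, 68.3 and 7.88 CPM in CHAGO and 46.0, 42.5 and 4.90 CPM in CALU. The summed level of 8 fibroblast markers ran between 2.12 and 2588 CPM in knockdown TICs, 0.0323 and 3109 CPM in TICs and 0.494 and 2636 CPM in parental cells. The top of each range was H1703 and was almost wholly PDGFRA. The 6 squamous markers summed to 1.04 to 125 CPM in knockdown TICs, 3.60 to 69.8 CPM in TICs and 0 to 25.6 CPM in parental cells. Leukocyte markers were mostly CD68 in 11 of 12 libraries, the parental cells of CHAGO having 0.0900 CPM of it, 0.750 CPM of CD14 and 0.360 CPM of PTPRC. The 6 endothelial markers summed to at most 48.0 CPM. CD3E, the T cell marker, and CLDN5, an endothelial marker, were at 0 in all 12 libraries.

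Most of these genes varied more between lines than between states. CALU, with 3 of 12 libraries, supplied 99.3% of the CPM of FN1 and of SPARC summed over the libraries, 98.6% of POSTN, 84.7% of THBS1, 82.2% of TNC, 70.4% of THBS2, 69.9% of MGP, 68.1% of FBN1 and 54.3% of FBN2. SPP1 was the exception, with 3.38% from CALU. Of the spread of log2 CPM of FBN2, 96.9% lay between lines and 0.937% between states. The share between lines was 87.2% or more for 7 of the 10 genes, namely FN1, THBS1, SPARC, TNC, SPP1, FBN1 and FBN2. It was 56.1% for THBS2, 40.4% for POSTN and 19.5% for MGP, while the mean over all genes tested was 60.1%. How many of all tested genes reached 87.2% was not counted. In H1703, SPARC, TNC and SPP1 had no read in any state and FBN2 had at most 1. SPARC had no read in CHAGO either, and libraries without reads share the same floor value. MGP was the gene with the largest share between states among the 10, at 54.8% against a mean of 12.9% over all genes tested. It had reads in 5 of 12 libraries, and the libraries without reads all lie at the floor set by the prior count of 2. Its share therefore depends on that setting.

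**Figure D1:**
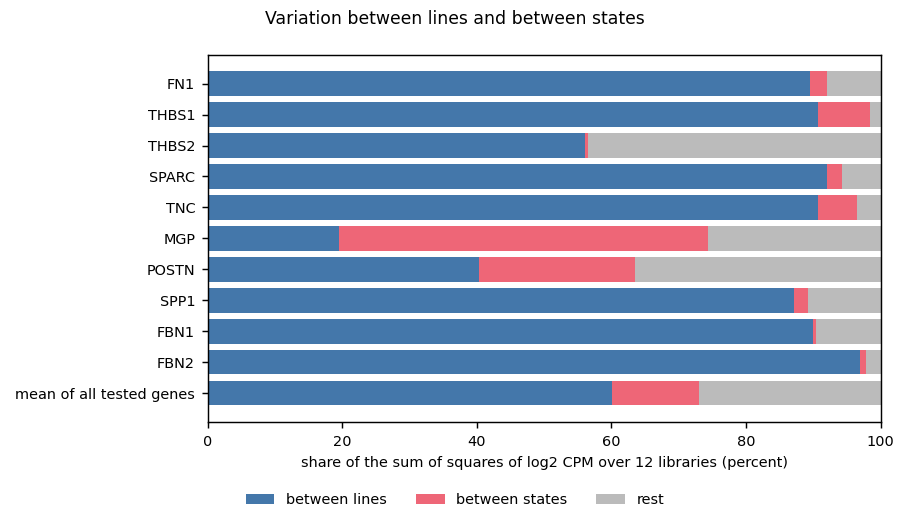
Share of the sum of squares of log2 CPM (horizontal axis, percent) between lines, between states and in the rest, for each of the 10 genes over 12 libraries, with the mean of all tested genes last. The part between lines takes 87.2% or more in 7 genes and 19.5% in MGP.

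The 10 genes together took up 0.881% of reads in the knockdown TICs of CALU, 3.96% in its TICs and 0.506% in its parental cells. In H1299 they took up 0.0372%, 0.0644% and 0.0215% in the same order of states, in CHAGO 0.0101%, 0.00881% and 0.0221%, and in H1703 0.00363%, 0.00812% and 0.00895%. The TIC library was highest in CALU and H1299, while the parental library was highest in CHAGO and H1703.

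**Figure D2:**
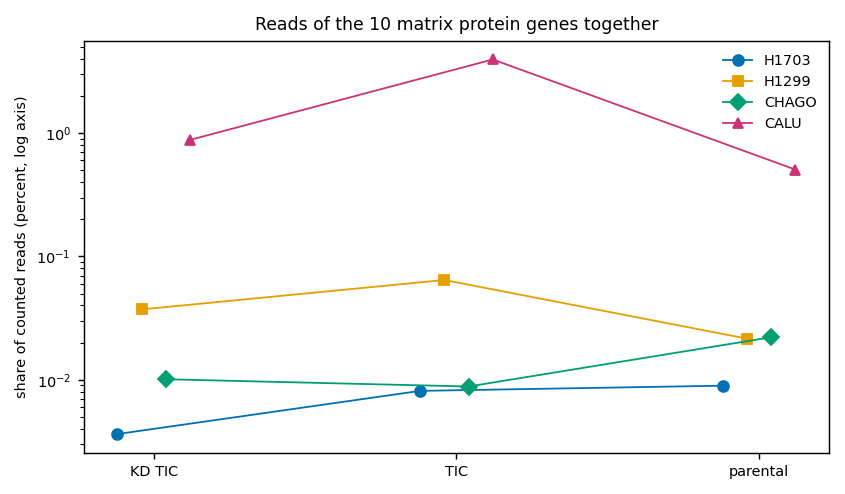
Reads of the 10 genes together as a percent of each library (vertical axis, logarithmic) in knockdown TICs, TICs and parental cells, one line of points per cell line. CALU lies above the other lines in every state and reaches 3.96% in TICs.

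FN1, fibronectin, was the most abundant of the 10 per length in CALU, at 963, 4432 and 287 CPM per kilobase in knockdown TICs, TICs and parental cells, and was low in CHAGO. It had 0.540, 79.8, 2.23 and 8574 CPM in the knockdown TICs of H1703, H1299, CHAGO and CALU, against 20.3, 216, 0.697 and 39468 CPM in TICs and 4.69, 23.5, 7.32 and 2552 CPM in parental cells. A single gene thus took up 3.57% of the TIC library of CALU (95% Clopper-Pearson interval 3.570 to 3.578, counting error only), with 0.757% in its knockdown TICs and 0.241% in its parental cells. TICs were higher than parental cells by 4.32-fold in H1703, 9.19-fold in H1299 and 15.5-fold in CALU, and 10.5-fold lower in CHAGO. Knockdown TICs were lower than TICs by 37.5-fold in H1703, 2.71-fold in H1299 and 4.60-fold in CALU, and 3.20-fold higher in CHAGO. CHAGO was the line that went the other way in each contrast, and both contrasts use the same TIC libraries. Against parental cells, knockdown TICs were 8.68-fold and 3.28-fold lower in H1703 and CHAGO and 3.39-fold and 3.36-fold higher in H1299 and CALU. Over the 4 lines the log2 difference between TICs and parental cells was 1.78 (standard error 1.14, edgeR adjusted p = 0.600) and that between knockdown TICs and TICs was -2.10 (standard error 1.03, edgeR adjusted p = 0.980). Of the 8 fibroblast markers, 2 were like FN1 highest in the TICs of CALU: COL1A1, with 301 CPM in knockdown TICs, 1340 CPM in TICs and 548 CPM in parental cells, and PDGFRB, with 2.76, 9.38 and 6.04 CPM. PDGFRA, DCN, LUM and FAP were highest in its knockdown TICs, where DCN had 25.5 CPM, LUM 34.8 CPM and FAP 125 CPM, against 1.32, 2.73 and 94.7 CPM in TICs. THY1 (0.944, 6.05 and 21.8 CPM) and COL3A1 (0, 0.809 and 0.889 CPM) were highest in its parental cells. The part of such markers in the FN1 values was not tested. The difference between TICs and parental cells was 1.10 without CALU, 2.97 without CHAGO, 3.75 with limma voom and 3.94 without the line in the model. In these bulk samples fewer expressing cells and less RNA per cell cannot be told apart.

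**Figure D3:**
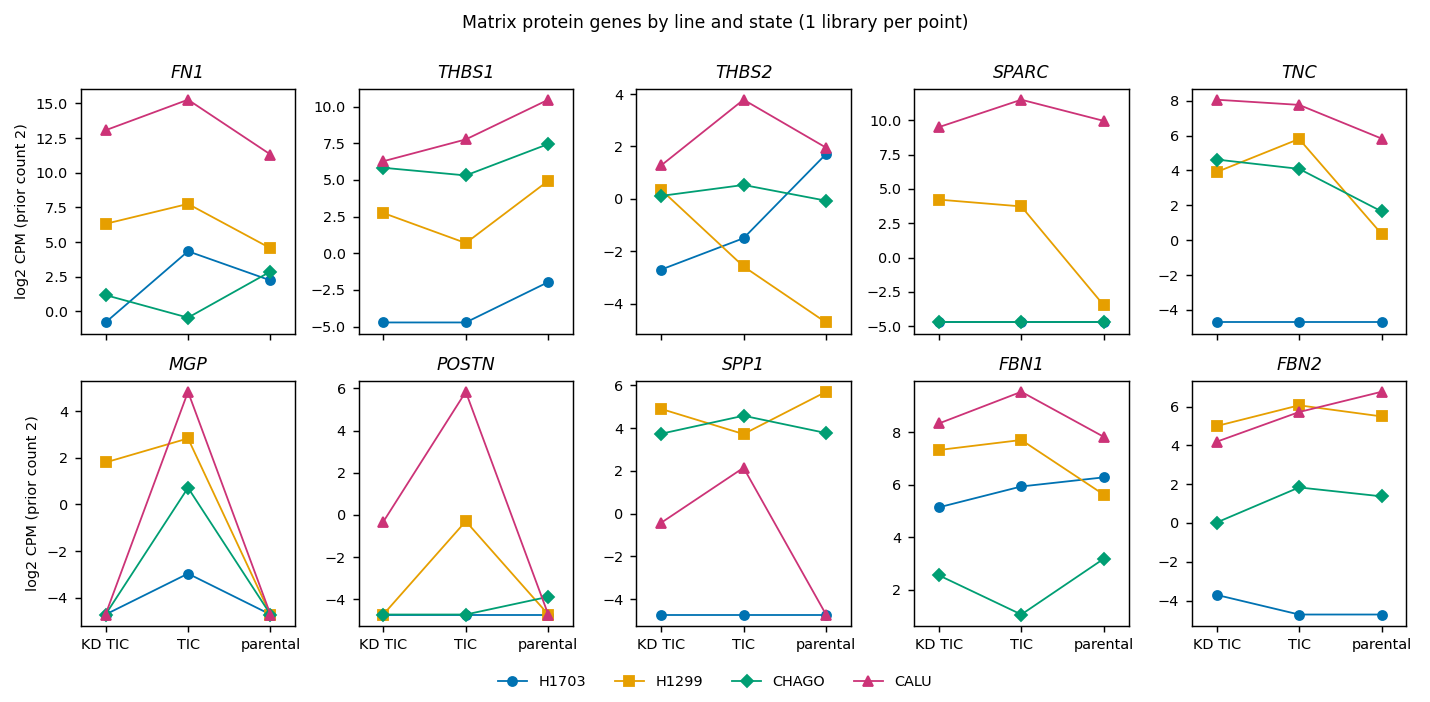
Levels of the 10 genes in each of the 12 libraries (vertical axis, log2 CPM with a prior count of 2) in knockdown TICs, TICs and parental cells, coloured by line. H1703 is hidden behind CHAGO for SPARC, where both have 0 reads, and overlaps it in POSTN; CALU lies highest for FN1 in every state.

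The thrombospondins went separate ways. THBS1, a trimeric protein that can activate latent TGF-beta and that binds CD47 and CD36, had 0, 6.66, 56.9 and 77.5 CPM in the knockdown TICs of H1703, H1299, CHAGO and CALU. It had 0, 1.58, 39.6 and 217 CPM in TICs and 0.218, 30.7, 175 and 1421 CPM in parental cells. TICs lay below parental cells in each of the 4 lines, with H1703 resting on 6 reads against none. TICs were 19.4-fold lower in H1299, 4.42-fold lower in CHAGO and 6.54-fold lower in CALU. In H1703 they were 1.62-fold lower if 3 reads are taken for none. That value takes the 6 parental reads as exact, so it is no firm limit. Over the 4 lines TICs differed from parental cells by -2.99 on the log2 scale (standard error 0.58). That difference did not pass over all genes tested (edgeR adjusted p = 0.142), though DESeq2 gave an adjusted p of 0.000111. Knockdown TICs held less THBS1 than parental cells as well (edgeR adjusted p = 0.180 over the 4 lines). They were 4.61-fold, 3.07-fold and 18.3-fold lower in H1299, CHAGO and CALU. In H1703 the value was 1.88-fold, again from 6 reads against none and no firm limit. Compared with TICs, knockdown TICs were 4.21-fold higher in H1299, 1.44-fold higher in CHAGO and 2.81-fold lower in CALU.

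THBS2, a close relative that like THBS1 inhibits the growth of blood vessels, was far scarcer. It had 0.116, 1.24, 1.04 and 2.38 CPM in knockdown TICs, 0.315, 0.129, 1.41 and 13.8 CPM in TICs and 3.24, 0, 0.915 and 3.84 CPM in parental cells, lines in the same order as before. TICs of H1703 were 10.3-fold lower than parental cells and those of CALU 3.58-fold higher, so the lines did not agree, and the log2 difference was -0.06 (edgeR adjusted p = 0.995). Knockdown TICs of CALU were 5.78-fold lower than its TICs and those of H1299 were 9.57-fold higher, a value that rests on 28 reads against 4. Per length, THBS1 had 28.0 CPM per kilobase in the TICs of CALU and THBS2 2.37, and in its parental cells they had 183 and 0.662.

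The promoters of 9 of the 10 genes were found by symbol in the RefSeq table (GRCh38.p14). The 4 below are shown because these genes either move in the same direction in most lines (THBS1), differ from their close relative (THBS2), or take their reads almost wholly from CALU (FN1 and POSTN). SPARC, with 99.8% of its reads from CALU, would fall under the last reason too, but its promoter is not printed. Each is the 250 bases upstream of the gene start, 5′ to 3′ on the strand of the gene, with capitals marking a motif match on either strand. The motif of the core promoter box that binds TBP was searched as TATAAA. For the factor family AP-1 the letters searched were TGANTCA. For the TEAD factors, which work with the Hippo pathway, they were GGAATG. They lie at chr15:39580829-39581078 on the + strand (THBS1), chr6:169253847-169254096 on the - strand (THBS2), chr13:37598769-37599018 on the - strand (POSTN) and chr2:215436069-215436318 on the - strand (FN1).
THBS1: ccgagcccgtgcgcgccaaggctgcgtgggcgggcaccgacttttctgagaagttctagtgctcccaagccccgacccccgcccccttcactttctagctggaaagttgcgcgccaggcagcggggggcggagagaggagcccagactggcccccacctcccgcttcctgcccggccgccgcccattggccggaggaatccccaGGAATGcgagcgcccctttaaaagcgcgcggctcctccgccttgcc
THBS2: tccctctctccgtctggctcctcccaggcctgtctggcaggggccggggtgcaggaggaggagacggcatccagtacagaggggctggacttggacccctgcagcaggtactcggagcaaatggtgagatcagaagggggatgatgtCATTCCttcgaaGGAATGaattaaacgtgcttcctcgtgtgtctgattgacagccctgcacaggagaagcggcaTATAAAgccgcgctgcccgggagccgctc
POSTN: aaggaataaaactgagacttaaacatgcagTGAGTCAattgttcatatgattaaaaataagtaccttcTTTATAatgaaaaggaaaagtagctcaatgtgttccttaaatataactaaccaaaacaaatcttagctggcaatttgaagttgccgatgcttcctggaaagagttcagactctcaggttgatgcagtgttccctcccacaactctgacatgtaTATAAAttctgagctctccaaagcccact
FN1: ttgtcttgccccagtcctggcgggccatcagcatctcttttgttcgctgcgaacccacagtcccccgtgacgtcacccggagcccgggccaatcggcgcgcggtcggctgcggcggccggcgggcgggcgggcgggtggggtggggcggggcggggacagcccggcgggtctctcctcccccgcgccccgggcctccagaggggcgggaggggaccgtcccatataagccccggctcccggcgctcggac
The THBS1 promoter held GGAATG at -46 to -41 from the start, and the THBS2 promoter held TATAAA at -29 to -24 with a GGAATG match further up on each strand. POSTN held TATAAA on the gene's strand at -29 to -24. Its AP-1 match, TGAGTCA, lay at -220 to -214. Among all 27305 promoters, 11.1% held TATAAA, 6.60% held TGANTCA and 11.9% held GGAATG, against 2, 1 and 4 of the 9 promoters here. The GLI motif GACCACCCA was in 0.216% of all promoters and in none of the 9. A match describes letters in this window and nothing about binding.

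TNC, MGP, SPARC and POSTN were the members with more reads in TICs than in parental cells in each line above 3 reads, which were 3 lines for TNC and MGP and 2 for SPARC and POSTN. TNC, a large adhesion-modulating glycoprotein of wounds and tumor stroma, had 0, 15.01, 24.7 and 267 CPM in knockdown TICs, 0, 56.1, 17.04 and 218 CPM in TICs and 0, 1.25, 3.11 and 57.0 CPM in parental cells. H1703 had no read in any state. Knockdown TICs were 12.02-fold, 7.96-fold and 4.69-fold higher than parental cells in H1299, CHAGO and CALU, and TICs 44.9-fold, 5.49-fold and 3.82-fold higher. The log2 differences from parental cells were 2.77 in knockdown TICs (standard error 0.67, edgeR adjusted p = 0.226) and 3.32 in TICs (standard error 0.71, edgeR adjusted p = 0.197). Between knockdown TICs and TICs the lines split, 3.74-fold lower in H1299 and 1.45-fold and 1.23-fold higher in CHAGO and CALU.

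MGP, a vitamin K-dependent inhibitor of calcification, had no read in any parental library. It had 0, 78, 0 and 0 reads in knockdown TICs and 2, 219, 131 and 2349 reads in TICs of H1703, H1299, CHAGO and CALU. TICs were at least 90.6-fold higher than parental cells in H1299, at least 35.6-fold in CHAGO and at least 819-fold in CALU, taking 3 reads per library as the limit. Knockdown TICs were 2.05-fold lower than TICs in H1299, at least 40.4-fold lower in CHAGO and at least 671-fold lower in CALU. Neither contrast passed over all genes (edgeR adjusted p = 0.980 for knockdown TICs against TICs and 0.207 for TICs against parental cells). DESeq2 gave an adjusted p of 5.17e-16 between TICs and parental cells, at a log2 difference of 30 (standard error 3.29). With no parental read the data set no upper bound on that estimate, so its p cannot be taken at face value. The limma voom adjusted p was 0.174. Knockdown TICs had reads above parental cells in H1299 alone, at least 44.1-fold.

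SPARC, a collagen-binding glycoprotein, was read in H1299 and CALU and had no read in H1703 or CHAGO. It had 18.6 and 720 CPM in knockdown TICs of H1299 and CALU, 13.2 and 2873 CPM in TICs, and 0.0520 and 987 CPM in parental cells. TICs of CALU were 2.91-fold higher than parental cells, and those of H1299 253-fold, with only 2 reads in the parental library (interval 69.7 to 2098, counting error only). Knockdown TICs were 3.99-fold lower than TICs in CALU and 1.41-fold higher in H1299. The log2 difference between TICs and parental cells was 2.57 (standard error 1.60, edgeR adjusted p = 0.609). It was 1.49 without H1299, 8.46 without the CALU parental library and 1.35 with DESeq2.

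POSTN, periostin, a fasciclin-domain protein that binds integrins, had 54 reads in the knockdown TICs of CALU, 4724 in its TICs and none in its parental cells. H1299 had 24 reads in TICs and none in the other states, H1703 had no read, and CHAGO had 2 reads in parental cells. In CALU, knockdown TICs were 74.9-fold lower than TICs, and TICs at least 1647-fold higher than parental cells. In H1299 the TIC library was at least 9.93-fold above the parental one and knockdown TICs at least 5.85-fold below TICs. The gene fell short of the filter, and with no filter its edgeR adjusted p was 0.986 between knockdown TICs and TICs and 0.701 between TICs and parental cells.

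SPP1, osteopontin, a phosphoprotein that binds integrins and CD44, was the member carried by other lines than CALU. It had 0, 29.8, 13.3 and 0.705 CPM in knockdown TICs, 0, 13.2, 23.9 and 4.39 CPM in TICs and 0, 52.0, 13.6 and 0 CPM in parental cells. TICs were 3.95-fold lower than parental cells in H1299, 1.75-fold higher in CHAGO and at least 127-fold higher in CALU. Knockdown TICs were 2.27-fold higher than TICs in H1299, 1.80-fold lower in CHAGO and 6.24-fold lower in CALU, so no direction was shared.

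The fibrillins, which build the microfibrils that hold latent TGF-beta, were read widely. FBN1 had 35.2, 161, 5.80 and 324 CPM in knockdown TICs, 61.3, 210, 2.03 and 751 CPM in TICs and 78.0, 49.4, 9.02 and 228 CPM in parental cells. TICs were higher in H1299 and CALU (4.25-fold and 3.30-fold) and lower in H1703 and CHAGO (1.27-fold and 4.44-fold). After knockdown FBN1 was 1.74-fold, 1.30-fold and 2.31-fold lower in H1703, H1299 and CALU and 2.86-fold higher in CHAGO. FBN2 had 0.0386, 31.9, 0.978 and 18.2 CPM in knockdown TICs, 0, 66.9, 3.52 and 52.6 CPM in TICs and 0, 45.0, 2.55 and 109 CPM in parental cells. Knockdown TICs were lower than TICs in each of the 3 lines with more than 3 reads, by 2.10-fold, 3.60-fold and 2.89-fold in H1299, CHAGO and CALU. The log2 difference was -1.31 (standard error 0.56), at an unadjusted p of 0.0404 and an edgeR adjusted p of 0.980. They were lower than parental cells in the same lines, by 1.41-fold, 2.61-fold and 5.97-fold (edgeR adjusted p = 0.433).

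Over the 9 genes tested, TICs were higher than parental cells in 6 and lower in 3, with a median log2 difference of 1.41 against -0.02 over all genes, 48.7% of which were higher. The median was 0.15 without CALU, 0.20 without its TIC library alone, 0.63 without H1299 and 2.29 without CHAGO. Each such fit, here and below, filtered the genes anew, so these medians are not over the same genes. They cover 8 members without CALU or H1299, 10 without H1703 or CHAGO and 9 without the CALU TIC library. None of the 9 passed an adjusted p of 0.05 in edgeR, where 0.0286% of all genes did; 3 passed an unadjusted p of 0.05, against 11.8% of all genes. The 3 were THBS1, TNC and MGP, which DESeq2 also called (3.65% of all genes called by it), and limma voom called none (0.0714% of all genes). Knockdown TICs were higher than TICs in 2 and lower in 7, with a median of -0.54 against -0.01 over all genes, 49.1% of which were higher. That median was -0.96 without H1703, -1.44 without H1299, -1.09 without CHAGO and -0.48 without CALU. Again none passed in edgeR (0.0143% of all genes), and 2 passed at an unadjusted p of 0.05 (4.28% of all genes), MGP and FBN2, with none called by DESeq2 (0.0785% of all genes) or limma voom (0.00714%). Between knockdown TICs and parental cells 4 were higher and 5 lower, with a median of -0.02 against -0.05, 47.1% of all genes being higher. That median ran between -0.78 without H1299 and 0.48 without H1703. None was called in edgeR (0.0357% of all genes) or limma voom (0.0428%); THBS1, TNC and FBN2 passed an unadjusted p of 0.05 (10.7%), and DESeq2 called THBS1, TNC and MGP (2.82%).

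**Figure D4:**
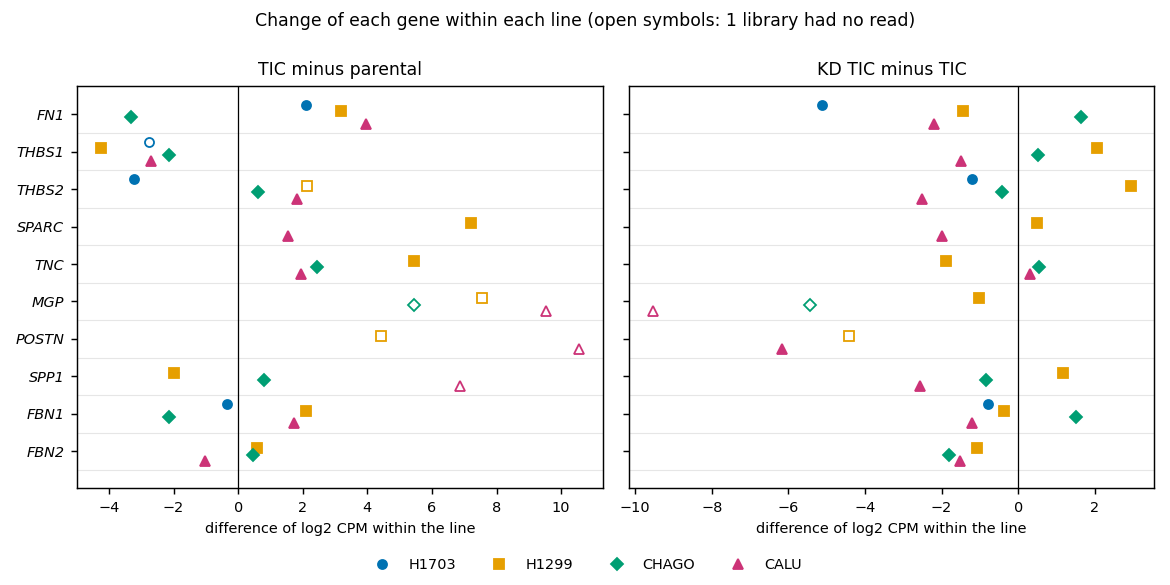
Log2 CPM difference of each gene in each line (horizontal axis) for knockdown TICs minus TICs and TICs minus parental cells, coloured by line, with open symbols where 1 library had no read and lines at or under 3 reads in both libraries not drawn. THBS1 lies to the left for TICs minus parental cells in 4 of 4 lines and FN1 to the left for knockdown TICs minus TICs in 3.

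By line, CALU had 9 of 10 genes lower in knockdown TICs than in TICs and 8 of 10 higher in TICs than in parental cells, where 49.3% and 49.7% of all tested genes lay that way. In each line both counts use its 1 TIC library, so they are not independent. H1299 had 6 of 10 lower after knockdown and 8 of 10 higher in TICs (47.4% and 47.3% of all tested genes). CHAGO had 4 of 8 lower and 5 of 8 higher (48.2% and 48.5%), and H1703 3 of 3 lower and 1 of 4 higher (46.8% and 44.6%). The member counts are of genes, POSTN among them, with more than 3 reads in at least 1 of the libraries compared. The percentages are over all 14008 tested genes with no such limit, ties counting as neither, so the bases differ. In H1703, THBS2 after knockdown rested on 3 reads against 7 (0.368-fold, interval 0.0613 to 1.61, counting error only). In H1299, THBS2 counted as higher in TICs than in parental cells on 4 reads against none.

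Measured genes of related lists, drawn up by function, are given beside medians of -0.02 (TICs against parental cells) and -0.01 (knockdown TICs against TICs) over all genes. Of all genes, 48.7% were higher in TICs than in parental cells and 49.1% higher in knockdown TICs than in TICs. Both contrasts use the same TIC libraries in every list. Among other matricellular genes, 11 of 14 tested were higher in TICs than in parental cells (median 1.03), and 11 of 14 lower in knockdown TICs than in TICs (median -1.06). CYR61, a CCN-family adhesion protein, was lower in TICs in 4 of 4 lines, by 2.61 on the log2 scale (edgeR adjusted p = 0.197). Partners of the elastic fibre had 9 of 13 higher in TICs (median 0.29) and 9 of 13 lower after knockdown (median -0.53). LTBP2, which binds fibrillin, was higher in TICs in 4 of 4 lines by 2.44 (edgeR adjusted p = 0.183) and lower after knockdown in 4 of 4 lines by 1.54 (edgeR adjusted p = 0.980), with the TIC libraries shared. Receptors of these proteins had 13 of 14 higher in TICs (median 0.76) and 9 of 14 lower after knockdown (median -0.29), among them LRP1, which takes up thrombospondins. LRP1 had 24.7, 16.0, 6.17 and 155 CPM in knockdown TICs, 38.6, 64.9, 7.57 and 395 CPM in TICs and 14.1, 3.09, 1.76 and 58.8 CPM in parental cells. It was 2.67 higher on the log2 scale in TICs than in parental cells (standard error 0.44), at an edgeR adjusted p of 0.100 and a limma voom one of 0.0484. In the list of TGF-beta ligands, signalling parts and modifying enzymes, 11 of 13 were higher in TICs (median 0.35) and 9 of 13 lower after knockdown (median -0.10), with TGFB1 higher by 2.17 in 4 of 4 lines (edgeR adjusted p = 0.119). Between knockdown TICs and parental cells, 5 of 14, 8 of 13, 12 of 14 and 11 of 13 were higher, in the order of the lists above. The medians were -1.11, 0.74, 0.74 and 0.49, beside -0.05 over all genes, of which 47.1% were higher. None of the genes in the 4 lists passed in edgeR in any of the 3 contrasts. In the order of the lists above, with 14, 13, 14 and 13 genes tested, DESeq2 called 1, 1, 2 and 1 between knockdown TICs and parental cells (2.82% of all genes). It called none between knockdown TICs and TICs (0.0785% of all genes). Between TICs and parental cells DESeq2 called 1, 3, 3 and 2 (3.65% of all genes). For TICs against parental cells its adjusted p was 0.000610 for CYR61, 0.000276 for LTBP2, 4.85e-07 for LRP1 and 5.24e-06 for TGFB1.

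The genes whose profile over the 12 libraries was most like that of a member were found by the root mean square difference of centred log2 CPM, as a description. For THBS1 it was ADAMTS1, a secreted metalloprotease, at 0.936 against a median of 4.80 over 8747 genes. For FN1 it was MMP1, a collagenase, at 2.43 (median 5.08), and for SPARC it was FN1 at 2.32 (median 6.44). FBN1 was nearest to NAV1 at 0.841 and FBN2 to TCF4 at 0.889. The points share depth and line, and CALU leads the profiles of FN1 and SPARC alike.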

How the data were processed

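The authors deposited raw counts, whole numbers of reads for each gene, per the file headers. The authors' deposited mode-normalized values are a score: by comparison of the tables, the count multiplied by 1 factor for each library, then rounded. CASAVA 1.4, TopHat 1.4, HTSeq 0.5.3p3 and hg19 are named, with no role, per the submitters' processing notes; RNA came from a Qiagen kit and libraries from a NuGEN kit, per the labels' protocols. Whether counting used strand is not given in the sources used here, so reads of an opposite transcript cannot be told apart.

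Analysis used R 4.3.3. After edgeR 4.0.16 filterByExpr, 14008 genes were fitted with TMM factors and its quasi-likelihood test (robust), with terms for state and line on 12 libraries (6 residual degrees of freedom), Benjamini-Hochberg adjusted over all tested genes at 0.05, two-sided. The line term takes out level differences between lines. Since 1 library stands for each line and state, p-values set a state difference against its variation from line to line. That variation cannot be told apart from variation between libraries. Each standard error is the size of the fold change over the square root of F. DESeq2 1.42.0, limma 3.58.1 voom, other scalings, filters and left-out libraries were alternatives. The labelled line pairs the libraries: deviations from the state means correlated at 0.553 to 0.760 for the same line (12 pairs) and at -0.415 to -0.060 for different lines (36 pairs), across genes. Intervals are Clopper-Pearson at 95% and cover counting error only. A fold based on the 3-read limit takes the count of the other library as exact. CPM uses the totals of tested genes. Per-length levels use the longest coding transcript in GENCODE, which may not be the authors' annotation. The members and lists were chosen with earlier results of these data known. Named genes are the members, PRKCI, up to 2 genes of smallest p per list and comparison, and up to 3 like genes per member; not all are printed. Markers of CALU and CHAGO beyond that were chosen after their values were seen. Parental cells with PRKCI knockdown were not analysed here. The CALU knockdown column and its sample's title are spelled 1 letter apart.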

Additional observations from a re-analysis of the deposited data

Results flagged for a closer look

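A value was picked out where the highest or lowest of 4 libraries of a state stood far from the rest. The measure was its gap over the whole range, on log2 CPM, at Dixon's 95% critical value. The usual chance rate of about 1 in 20 groups is for values without ties, so it is no yardstick here. Where all other libraries had no read, the ratio was 1.0 by construction, whatever the number of reads. Of 29 groups, 4 were picked out. In knockdown TICs these were MGP with H1299 highest (ratio 1.0, 78 reads against none elsewhere) and POSTN with CALU highest (1.0, 54 reads against none). In parental cells they were POSTN with CHAGO highest (1.0, on 2 reads, under the limit of 3) and SPARC with CALU highest (0.915).

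Other values were picked out because lines moved in opposite directions by at least 1 on the log2 CPM scale; with 1 library per line and state this difference was not tested. For knockdown TICs against TICs the gap between the extreme lines was 2.71 for FBN1, 6.76 for FN1, 3.75 for SPP1, 3.54 for THBS1 and 5.44 for THBS2. For TICs against parental cells it was 4.22 for FBN1, 7.27 for FN1, 8.85 for SPP1 and 5.35 for THBS2. The SPP1 gap uses 364 reads against none in CALU, and the THBS2 gap 4 against none in H1299. Both sizes therefore depend on the prior count of 2. CHAGO was the line opposed to the others for FN1 in both contrasts and for FBN1 after knockdown.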

How the results depend on the processing

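Over 16 alternatives, the count of members called (0 in each contrast) moved only with DESeq2, to 3 in each contrast with parental cells, both times MGP, THBS1 and TNC. The MGP calls rest on log2 differences of 30 in TICs and 18.4 in knockdown TICs, which have no upper bound without parental reads. The THBS1 difference between TICs and parental cells ran between -3.62 and -2.61 and that of TNC between 2.17 and 4.08 on the log2 scale, with the same sign in all 16. PRKCI after knockdown kept its sign in all 16, between -3.38 and -2.65, and passed the threshold in 5 of them. The causes of the changes below were not tested. The count over all genes, 4 for TICs against parental cells, was 0 without the replicate block, with the compared groups only and on mode-normalized values, 511 with DESeq2, 10 with limma voom, and 0 to 5 with a library or line left out. For knockdown TICs against TICs, 2 in all, it was 0 without the block, with a 1 CPM filter, with the compared groups only and on mode-normalized values, 11 with DESeq2, 1 with limma voom, and 0 to 1 with a library or line left out. For knockdown TICs against parental cells, 5 in all, it was 8 with DESeq2 size factors, 3 with a 1 CPM filter, 0 without the block, with the compared groups only and on mode-normalized values, 395 with DESeq2, and 0 to 2 with a library or line left out. The median of the members for TICs against parental cells ran between 0.15 (without CALU) and 2.29 with a library or line left out, and was 0.20 without the CALU TIC library. For knockdown TICs against TICs it ran between -1.44 and -0.36, with -1.40 in limma voom and -1.27 without the block, and for knockdown TICs against parental cells between -0.78 and 0.48. The sets without 1 CALU library were added after seeing the data. Each set with a library or line left out was filtered anew, so its median was over 8 to 10 members.

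Signs that turned, as log2 differences, were all of values that no fit called. Without the replicate block they were, for TICs against parental cells, THBS2 0.97 and SPP1 -0.66; for knockdown TICs against TICs, THBS1 -0.87, THBS2 -1.71, TNC 0.078 and SPP1 0.079; for knockdown TICs against parental cells, FN1 1.74, SPARC -0.42, SPP1 -0.58 and FBN1 0.53. With the compared groups only they were THBS2 0.75 and FBN2 0.014 for TICs against parental cells, THBS2 -0.50 after knockdown and FBN1 0.10 for knockdown TICs against parental cells. With limma voom they were THBS2 1.17 for TICs against parental cells; THBS1 -0.66, THBS2 -1.55 and TNC 0.12 after knockdown; FN1 1.66, SPARC -0.27, SPP1 -0.0032 and FBN1 0.51 for knockdown TICs against parental cells. On mode-normalized values they were THBS2 0.23 and FBN2 0.080 for TICs against parental cells, THBS2 -0.39 after knockdown and FBN1 0.17 for knockdown TICs against parental cells. Against parental cells, knockdown TICs turned in THBS2 to 0.011 with DESeq2 size factors and 0.044 with DESeq2, and in SPP1 to -0.025 with library totals only. Leave-one-out ranges of the genes whose sign turned were, for TICs against parental cells, THBS2 -1.28 to 1.41, SPP1 -0.47 to 3.38, FBN1 -0.21 to 1.04 and FBN2 -0.32 to 0.56; for knockdown TICs against TICs, THBS1 -0.29 to 1.11, THBS2 -1.45 to 1.23, SPARC -1.94 to 1.18, TNC -1.09 to 0.44, SPP1 -2.11 to 0.73 and FBN1 -0.77 to 0.037; for knockdown TICs against parental cells, FN1 -1.03 to 0.64, THBS2 -1.95 to 2.02, SPARC -0.45 to 7.71, SPP1 -0.83 to 1.27 and FBN1 -0.52 to 0.32. The depth limits genes near 3 reads: THBS2, POSTN and MGP in H1703 and H1299 in particular.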
